A study of Mus musculus with 6 samples.

Results

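The genes described here encode the SLC25 family, the carriers that move metabolites, nucleotides, cofactors and ions across the inner membrane of mitochondria. A family gene was taken as any row of the deposited table whose Ensembl mouse identifier maps to a symbol made of Slc25a plus a number. Of the 45 such rows, 36 averaged at least 10 normalized reads across the 6 libraries and are the members reported on, out of 23154 genes in the table and 11201 that passed the same filter. The lowest member, Slc25a53, averaged 45.3 normalized reads, and the highest family gene below the filter, Slc25a47, averaged 8.49. Values are normalized reads, meaning a gene's reads scaled to a library total of 10000000 gene reads.

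RNA was sequenced from 2 stable lines made from RAW264.7, a line of mouse cells that behave like macrophages. The NUR77 line carries the construct pINDUCER20b-HA-NUR77, which makes the nuclear receptor NUR77 with an HA tag when doxycycline is given, and the GFP line carries pINDUCER20b-GFP as its control. Both lines received 1 µg/mL doxycycline for 18 hours, starting 24 hours after seeding, with 3 dishes for each, so doxycycline was present in all 6 libraries. The study asks about NUR77 in macrophage metabolism and inflammation, and the question put to the carriers was which of them differed in transcript level between the lines. Because each group is 1 stable line, a difference between the lines and an effect of the transgene cannot be told apart, and the p-values reflect only variation from dish to dish. In bulk RNA, fewer cells that express a gene and less of its RNA per cell cannot be told apart either.

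Most SLC25 proteins are built from a tandem repeat of membrane helices and work as exchangers, taking a substrate into the matrix against another that leaves. They link the citric acid cycle, the urea cycle, fatty acid oxidation, nucleotide supply and ATP export to the cytosol. In macrophages the citrate carrier is known for supplying cytosolic citrate for acetyl coenzyme A, and the malate-aspartate shuttle, which uses the oxoglutarate and the aspartate-glutamate carriers, returns cytosolic reducing equivalents to the matrix.

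Nr4a1, the gene of NUR77, had 288, 314 and 297 normalized reads in the NUR77 libraries, against 170.0, 148 and 161 in the GFP libraries (log2 fold change 0.90, limma adjusted p = 5.5e-08). These values do not separate transgene from endogenous reads. Depth ranged from 11199468 to 15929487 reads on genes per library. Of the 8 macrophage markers, which were all read in both lines, the sum was 25832 to 27418 normalized reads in NUR77 libraries and 56778 to 57821 in GFP libraries. The markers did not move together: Lyz2 and Cd68, which carried most of the difference, fell with Csf1r, Adgre1 and Fcgr3, Itgam rose, and Ptprc and Spi1 were not called. Without Lyz2 and Cd68 the sum was 19036, 18808 and 18829 in NUR77 libraries and 16499.8, 16536 and 16468 in GFP libraries. A list of 14 skeletal muscle markers summed to 7482 to 8092 normalized reads in NUR77 libraries and 636 to 701 in GFP libraries, with Eno3 the main contributor in the NUR77 line. Without Eno3 the sum was 332, 114 and 122 in NUR77 libraries, where replicate 1 stood apart, and 436, 385 and 418 in GFP libraries, where Tnni2 made up most of it. Without Tnni2 as well it was 236, 55.7 and 50.1 in NUR77 and 51.6, 49.6 and 45.8 in GFP libraries. The 4 epithelial markers reached at most 0.893 in a NUR77 library and 0.697 in a GFP library, and the 3 T cell and 2 brown fat markers were at 0 in all libraries. The 5 heart markers summed to 67.6 to 92.0 in NUR77 and 14.4 to 15.7 in GFP libraries, and the 5 fibroblast markers to 22.3 to 92.9 in NUR77 and 17.6 to 22.3 in GFP libraries. The 3 B cell markers summed to 12.5 to 30.0 in NUR77 and 2.09 to 3.27 in GFP libraries, and Prm2, the testis marker with a row, had 3.98 to 8.36 in NUR77 and 0 in GFP libraries. The part of these markers in the carrier results was not tested, other than by leaving out libraries.

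Of the 36 carriers, 16 rose and 8 fell in the NUR77 line at an adjusted p under 0.05, and 12 were not called. The share of all tested genes called was 66.7%, and the 24 carriers called make up 66.7% of the family as well. By direction, 44.4% of the carriers rose, against 38.4% of all tested genes, and 22.2% of the carriers fell, against 28.3% of all tested genes. Under TMM scaling 13 carriers rose and 10 fell, and 3612 of all tested genes rose and 3835 fell. The median log2 fold change of the carriers was 0.12, beside 0.06 for all tested genes; under TMM scaling it was 0.045 for the carriers and -0.01 for all tested genes. In 26 carriers (72.2%) the 3 values of a line did not overlap those of the other, as in 70.6% of tested genes. The median SD between dishes on the log2 scale was 0.08 for carriers and 0.09 for all tested genes.

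**Figure D1:**
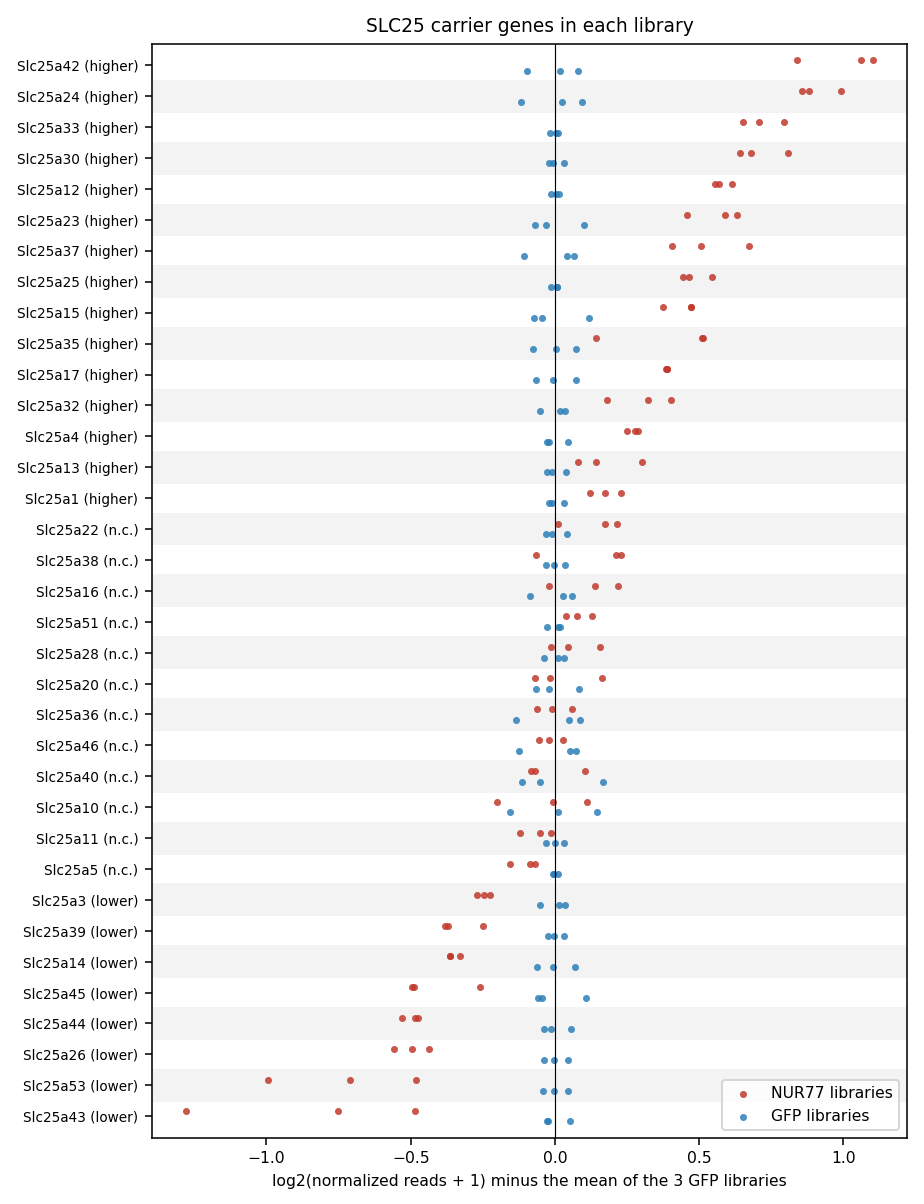
Each of the 35 rows is an SLC25 carrier gene and each point 1 library, plotted as log2(normalized reads + 1) minus the mean of the 3 GFP libraries, with NUR77 points (red) drawn above GFP points (blue); "higher" and "lower" mark genes at a limma adjusted p under 0.05 and "n.c." genes not called. Slc25a42 has NUR77 points at 1.00 on average, and Slc25a43 lies farthest to the left, at -0.84, where the 3 NUR77 libraries also spread most.

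Promoter windows from RefSeq (GRCm38.p6, 250 bases before to 50 after a transcript start) were matched by symbol for 28 of the 36 members. The binding element known for NUR77 as a monomer, AAAGGTCA, was searched on both strands. It was in 0 of the 28 members' windows and in 1.70% of the genes with a window, which says only that these letters are not in these 300 bases. The E-box CACGTG was in windows of 6 members (21.4%), against 8.09% of all genes with a window. Those 6 were Slc25a1, Slc25a13, Slc25a15 and Slc25a33, which rose, Slc25a14, which fell, and Slc25a36, which was not called. The cyclic AMP element TGACGTCA was in windows of 2 members (Slc25a25 and Slc25a36, or 7.14%; 2.03% of all genes) and the NRF1 motif, GCGCA and GCGC with any base between them, in 1 (Slc25a3, or 3.57%; 5.19% of all genes). The E-box of Slc25a14 is 1 site that lies in 2 overlapping windows, and no matches of different motifs overlapped. The members' windows were richer in G and C, with a median of 60.0%, against 52.7% for all windows. The shares of all genes were not matched to the members in G and C content or in expression. The part of these differences in the motif shares was not tested.

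The 5 windows printed are those of 3 large rises (Slc25a42, Slc25a24 and Slc25a33), of Slc25a36 as the partner of Slc25a33 that was not called, and of the largest fall over all libraries (Slc25a43). They read 5′ to 3′ on the gene's strand, with capitals for an E-box or a cyclic AMP element.
Slc25a42 (chr8:70212232-70212531, minus strand): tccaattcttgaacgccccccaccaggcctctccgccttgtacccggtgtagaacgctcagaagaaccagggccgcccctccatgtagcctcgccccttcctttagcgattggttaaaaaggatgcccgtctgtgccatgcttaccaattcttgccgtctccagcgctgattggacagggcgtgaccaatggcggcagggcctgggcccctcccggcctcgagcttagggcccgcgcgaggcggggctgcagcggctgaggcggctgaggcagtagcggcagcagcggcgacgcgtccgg
Slc25a24 (chr3:109122899-109123198, plus strand): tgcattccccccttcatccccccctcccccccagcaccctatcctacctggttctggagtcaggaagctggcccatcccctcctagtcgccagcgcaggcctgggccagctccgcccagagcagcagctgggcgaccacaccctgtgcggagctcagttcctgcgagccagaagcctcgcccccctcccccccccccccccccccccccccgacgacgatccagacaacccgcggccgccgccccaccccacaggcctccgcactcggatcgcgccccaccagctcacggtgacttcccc
Slc25a33 (chr4:149774218-149774517, minus strand): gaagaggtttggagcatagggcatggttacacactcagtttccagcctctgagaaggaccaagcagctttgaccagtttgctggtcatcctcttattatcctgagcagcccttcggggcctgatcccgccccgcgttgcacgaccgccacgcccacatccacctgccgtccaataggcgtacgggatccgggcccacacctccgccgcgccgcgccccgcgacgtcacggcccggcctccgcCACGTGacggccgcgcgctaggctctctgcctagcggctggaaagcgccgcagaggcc
Slc25a36 (chr9:97110992-97111291, minus strand): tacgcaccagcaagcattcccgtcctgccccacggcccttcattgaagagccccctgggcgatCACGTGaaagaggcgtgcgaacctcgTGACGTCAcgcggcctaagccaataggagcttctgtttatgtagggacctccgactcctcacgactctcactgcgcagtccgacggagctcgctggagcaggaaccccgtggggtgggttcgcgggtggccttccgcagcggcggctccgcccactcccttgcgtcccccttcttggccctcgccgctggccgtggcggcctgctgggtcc
Slc25a43 (chrX:36743382-36743681, plus strand): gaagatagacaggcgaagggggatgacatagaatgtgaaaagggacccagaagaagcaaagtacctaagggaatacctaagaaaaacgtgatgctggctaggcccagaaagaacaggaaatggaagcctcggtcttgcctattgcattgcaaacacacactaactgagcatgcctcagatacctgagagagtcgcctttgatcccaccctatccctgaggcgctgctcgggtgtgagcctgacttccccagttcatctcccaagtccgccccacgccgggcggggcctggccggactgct

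In Slc25a33 the E-box begins 8 bases before the transcript start. In Slc25a36 it begins 187 bases before the start and the cyclic AMP element 161 bases before it. The windows of Slc25a42, Slc25a24 and Slc25a43 hold none of the motifs searched.

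Among the adenine nucleotide and phosphate carriers, the ADP/ATP translocases and the phosphate carrier supply ADP and phosphate to the ATP synthase and export ATP. The ATP-Mg and phosphate exchangers are counted in the same group. Of the 6 members, 4 rose, 1 fell and 1 was not called. Counts by role, here and below, stand beside 38.4% of all tested genes that rose and 28.3% that fell. Slc25a24, an ATP-Mg and phosphate exchanger regulated by calcium (chr3:109123149-109168457, plus strand, mm10), had 1759.9, 1602 and 1626 normalized reads in the NUR77 libraries, against 899.6, 942 and 814 in the GFP libraries. Every NUR77 library was above every GFP library, with means of 1663 ± 85.2 in NUR77 and 885 ± 65.1 in GFP libraries (SD, n = 3 each; log2 fold change 0.91, SE 0.06, limma adjusted p = 9.8e-10). Slc25a23, another exchanger of that kind, stood at 529, 581 and 597 in NUR77 and 414, 367 and 377 in GFP libraries, a log2 fold change of 0.56 (limma adjusted p = 2.1e-06). Slc25a25, the remaining calcium-regulated exchanger with a member row, rose by less, to a mean of 495 ± 18.6 in NUR77, against 353 ± 3.12 in GFP libraries (log2 fold change 0.48, limma adjusted p = 3.6e-06). All 3 calcium-regulated exchangers were higher in the NUR77 line, without overlap between lines. Slc25a25 shares 379 exonic bases with Naif1 on the other strand, and Naif1 was not called (log2 fold change -0.15, limma adjusted p = 0.13), though it was called lower with TMM scaling (0.028), with the other scalings (0.035 and 0.040) and without trend and robust moderation (0.035).

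Of the ADP/ATP translocases, Slc25a4 rose and Slc25a5 was not called. Slc25a4 (ANT1), the isoform known from heart and skeletal muscle (chr8:46206797-46211284, minus strand), had 1988, 1938 and 1972 normalized reads in NUR77 libraries, against 1607, 1599 and 1680.4 in GFP libraries (log2 fold change 0.27, SE 0.05, limma adjusted p = 1.1e-04). The call held without NUR77 replicate 1, the NUR77 library with the most muscle marker reads other than Eno3 (log2 fold change 0.26, limma adjusted p = 4.2e-04). Slc25a5 (ANT2), the isoform of growing cells and the highest of the 36 members in normalized reads (chrX:36795651-36798807, plus strand), had 6806, 6733 and 6409 in NUR77 and 7130.1, 7195 and 7117 in GFP libraries. The 3 NUR77 values lay below the 3 GFP values, but the gene narrowly missed the threshold (log2 fold change -0.10, SE 0.05, limma adjusted p = 0.052). It passed as lower under TMM scaling (log2 fold change -0.18, limma adjusted p = 0.0031). It also passed under median-of-ratios scaling (limma adjusted p = 0.0066) and upper-quartile scaling (0.0046), with limma-voom (0.049) and without NUR77 replicate 1 (0.034). A pseudogene of Slc25a5 is annotated, and reads from such copies can be split or dropped in counting. Slc25a3, the phosphate carrier, which also carries copper (chr10:91116574-91124059, minus strand), fell, with 3108, 3206 and 3158 in NUR77 libraries, against 3842, 3617 and 3784 in GFP libraries (log2 fold change -0.25, SE 0.05, limma adjusted p = 2.0e-04). Its 3 NUR77 values did not reach the lowest GFP value.

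The carriers of di- and tricarboxylates, here together with the relatives of the uncoupling proteins, had 2 that rose and 1 that fell of 5. Slc25a1, the citrate carrier (chr16:17925223-17928219, minus strand), was read 803, 835 and 776 times per 10000000 in NUR77 libraries, against 729, 707 and 702 in GFP libraries. This small rise (log2 fold change 0.17, SE 0.06, limma adjusted p = 0.011) did not hold throughout. The limma adjusted p was 0.13 with TMM, 0.076 with median-of-ratios and 0.086 with upper-quartile scaling, and 0.052 without NUR77 replicate 2 and 0.051 without GFP replicate 3. Slc25a11, the oxoglutarate-malate carrier (chr11:70644196-70647479, minus strand), had 1075, 1104 and 1026 in NUR77 and 1091, 1114 and 1141 in GFP libraries, and the ranges overlapped (log2 fold change -0.06, SE 0.05, limma adjusted p = 0.31). It passed as lower under TMM (limma adjusted p = 0.034) and upper-quartile scaling (0.047), and shares 189 exonic bases with Rnf167 on the other strand, which fell (-0.26, limma adjusted p = 0.0078). Slc25a10, the dicarboxylate carrier that exchanges malate or succinate for phosphate (chr11:120491840-120499187, plus strand), had 169.7, 211 and 194 in NUR77 and 175, 216 and 197 in GFP libraries (log2 fold change -0.03, SE 0.10, limma adjusted p = 0.80). Replicate 1 was the lowest library of both lines for this gene, and the lines overlapped fully.

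Slc25a30, also named kidney mitochondrial carrier 1 and related to the uncoupling proteins (chr14:75760117-75787037, minus strand), changed most in this group. It had 645, 662 and 724 normalized reads in NUR77 libraries, against 407, 411 and 422 in GFP libraries, with no overlap (log2 fold change 0.71, SE 0.06, limma adjusted p = 3.2e-08). Slc25a14, or uncoupling protein 5 (chrX:48623413-48662294, plus strand), was low, at 41.4 ± 0.623 in NUR77 and 53.2 ± 2.51 in GFP libraries. Its fall (log2 fold change -0.35, limma adjusted p = 0.042) was lost without any 1 of the 6 libraries (limma adjusted p between 0.059 and 0.11), without the filter (0.082) and with the replicate block (0.054).

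Among the 7 carriers of amino acids and acylcarnitine, 3 rose, 1 fell and 3 were not called. Slc25a12 (aralar), an aspartate-glutamate carrier of the malate-aspartate shuttle (chr2:71271063-71367749, minus strand), had 1295, 1347 and 1308 normalized reads in NUR77 libraries and 888, 871 and 882 in GFP libraries. The lines were far apart relative to their spread, with means of 1317 ± 27.4 in NUR77 and 881 ± 8.68 in GFP libraries (log2 fold change 0.58, SE 0.05, limma adjusted p = 2.7e-08). Slc25a13 (citrin), the other aspartate-glutamate carrier and part of the urea cycle in liver (chr6:6041218-6217173, minus strand), had 945, 846 and 809.9 in NUR77 and 761, 751 and 787 in GFP libraries (log2 fold change 0.17, limma adjusted p = 0.020). NUR77 replicate 1 was its highest library, and the call was lost without it (log2 fold change 0.11, limma adjusted p = 0.097), without GFP replicate 1 (0.054) or 2 (0.059), without trend and robust moderation (0.065), and under TMM (0.17), median-of-ratios (0.11) and upper-quartile scaling (0.13), the values in parentheses being limma adjusted p.

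Slc25a15, the ornithine-citrulline carrier of the urea cycle (chr8:22375551-22398597, minus strand), rose to 263 ± 10.4 in NUR77, against 194 ± 14.0 normalized reads in GFP libraries (log2 fold change 0.44, limma adjusted p = 1.7e-04). Slc25a44, which carries branched-chain amino acids (chr3:88410498-88425139, minus strand), was the member of this group that fell, with means of 509 ± 10.5 in NUR77 and 719 ± 24.3 in GFP libraries (log2 fold change -0.50, SE 0.06, limma adjusted p = 9.0e-07). Slc25a22, a glutamate carrier, had 230.4, 258 and 266 in NUR77 and 224, 235 and 227 in GFP libraries, and Slc25a38, a glycine carrier needed for heme synthesis, had 178, 215 and 218 in NUR77 and 185, 182 and 190.2 in GFP libraries. In both genes NUR77 replicate 1 lay within the GFP range or below it, and neither was called (limma adjusted p = 0.16 and 0.25). Both passed as higher without that library, at log2 fold changes of 0.19 (limma adjusted p = 0.042) and 0.22 (0.033). Slc25a20, the carnitine-acylcarnitine carrier of fatty acid oxidation (chr9:108662088-108684641, plus strand), had 163, 144 and 138 in NUR77 and 154, 139 and 143 in GFP libraries. Its ranges overlapped (log2 fold change 0.03, SE 0.10, limma adjusted p = 0.83).

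**Figure D2:**
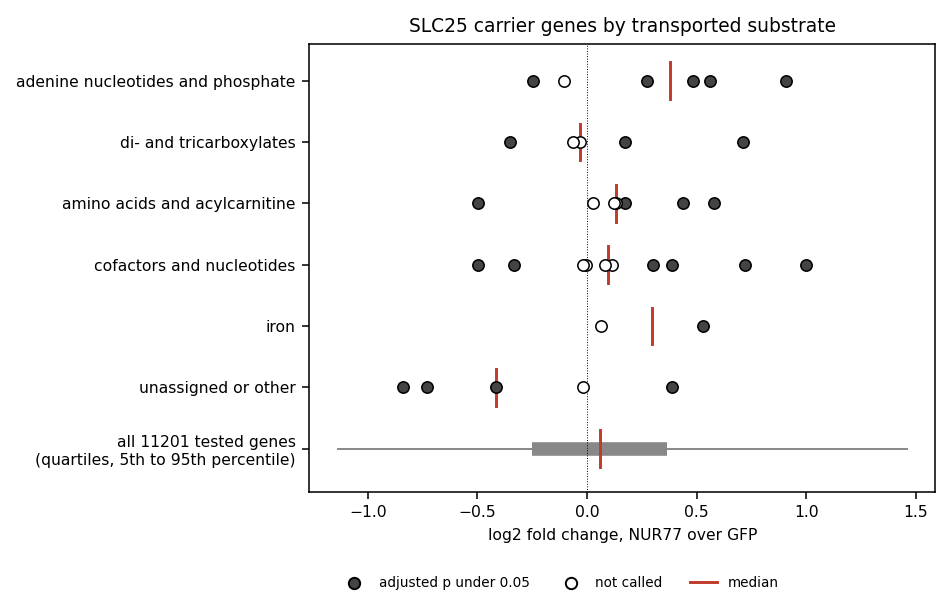
Points are the log2 fold changes (NUR77 over GFP) of 35 SLC25 carrier genes by transported substrate, filled where the limma adjusted p was under 0.05; red lines are medians of the points shown, and the grey bar gives the quartiles and the 5th to 95th percentile (-1.14 to 1.46) of all 11201 tested genes. Each group except iron holds members on both sides of 0, and all points shown lie between those percentiles.

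Of the 11 cofactor and nucleotide carriers, 5 rose, 2 fell and 4 were not called. Slc25a42, a coenzyme A carrier (chr8:70184340-70212305, minus strand), was low but rose 2.00-fold, with 97.3, 114 and 117 in NUR77 and 57.1, 54.6 and 50.3 in GFP libraries (log2 fold change 1.00, SE 0.13, limma adjusted p = 2.6e-06). Slc25a16, for which coenzyme A transport has been proposed (chr10:62920633-62946498, plus strand), had 333, 393 and 372 in NUR77 and 352, 344 and 318 in GFP libraries (log2 fold change 0.11, SE 0.08, limma adjusted p = 0.21). It was called as higher without NUR77 replicate 1 alone (0.18, limma adjusted p = 0.045).

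Slc25a33, a pyrimidine nucleotide carrier that supplies mitochondrial DNA and RNA synthesis (chr4:149744036-149774277, minus strand), had 469.7, 452 and 499 normalized reads in NUR77 and 284, 288 and 289.5 in GFP libraries (log2 fold change 0.72, SE 0.07, limma adjusted p = 6.1e-08). Slc25a36, the other pyrimidine nucleotide carrier (chr9:97074961-97111157, minus strand), had 821, 792 and 862 in NUR77 and 879, 753 and 856 in GFP libraries, with overlapping ranges (log2 fold change -0.01, SE 0.06, limma adjusted p = 0.95). Of the glutathione carriers, Slc25a39 fell and Slc25a40 was not called. Slc25a39 (chr11:102402985-102407946, minus strand) fell, with 2240.3, 2454 and 2255 in NUR77 libraries, against 2907, 2864 and 2977 in GFP libraries (log2 fold change -0.33, SE 0.05, limma adjusted p = 2.1e-05). Slc25a40 (chr5:8422850-8454797, plus strand), by contrast, had 280.4, 249 and 247 in NUR77 and 293, 241 and 252 in GFP libraries (log2 fold change -0.02, SE 0.09, limma adjusted p = 0.88), and replicate 1 was its highest library in both lines.

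Slc25a17, which carries coenzyme A and other cofactors into peroxisomes rather than mitochondria, rose (log2 fold change 0.39, limma adjusted p = 1.8e-05), as did Slc25a32, the folate and FAD carrier (0.30, limma adjusted p = 0.0043). Slc25a26, which imports S-adenosylmethionine for methylation in the matrix, fell to 47.3 ± 2.02 in NUR77, against 67.2 ± 2.01 normalized reads in GFP libraries (log2 fold change -0.50, limma adjusted p = 0.0039). It shares 144 exonic bases with Lrig1 on the other strand, which had 37.4 ± 4.42 in NUR77 and 0.450 ± 0.390 in GFP libraries, and the part of that overlap was not tested. Slc25a51, the carrier of NAD, was not called (log2 fold change 0.08, SE 0.05, limma adjusted p = 0.20), although its lines did not overlap.

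Both iron carriers, the mitoferrins, were members. Slc25a37 (mitoferrin 1), known for supplying iron for heme synthesis in erythroid cells (chr14:69241848-69285112, minus strand), had 1674, 1796 and 2015 normalized reads in NUR77 libraries, against 1323, 1173 and 1303 in GFP libraries (log2 fold change 0.53, SE 0.07, limma adjusted p = 3.1e-06). Slc25a28 (mitoferrin 2), the isoform of other tissues (chr19:43663801-43674881, minus strand), had 245, 255 and 275 in NUR77 and 249, 240.4 and 252 in GFP libraries, with overlapping ranges (log2 fold change 0.06, SE 0.08, limma adjusted p = 0.49).

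Of the 5 members left without a substrate here, 1 rose, 3 fell and 1 was not called. Slc25a43 (chrX:36743659-36777202, plus strand) had 32.1, 46.7 and 56.5 normalized reads in NUR77 libraries, against 78.0, 77.8 and 82.4 in GFP libraries. Over all libraries this was the largest fall of the family (log2 fold change -0.84, SE 0.18, limma adjusted p = 4.8e-04). Slc25a53 (chrX:136981116-137038302, minus strand), the lowest member, had 40.2, 27.9 and 34.2 in NUR77 and 56.4, 58.4 and 54.9 in GFP libraries (log2 fold change -0.73, SE 0.17, limma adjusted p = 0.0010). Without NUR77 replicate 1 their order turned, with log2 fold changes of -0.62 for Slc25a43 and -0.85 for Slc25a53. Slc25a45 (chr19:5877808-5885878, plus strand) fell by less (log2 fold change -0.41, limma adjusted p = 1.6e-04). Slc25a46, a protein of the outer membrane linked to mitochondrial shape, had a log2 fold change of -0.02 (SE 0.06, limma adjusted p = 0.83).

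Slc25a35 (chr11:68968131-68974365, plus strand) had 52.7, 68.3 and 68.4 normalized reads in NUR77 and 50.2, 47.7 and 45.1 in GFP libraries (log2 fold change 0.39, limma adjusted p = 0.030). The call was lost with TMM (limma adjusted p = 0.071), median-of-ratios (0.058) and upper-quartile scaling (0.062). It was also lost without NUR77 replicate 2 (limma adjusted p = 0.11) or 3 (0.0996) and without GFP replicate 2 (0.057) or 3 (0.098). Slc25a35 shares 1151 exonic bases with Rangrf on the other strand, which rose (log2 fold change 0.75, limma adjusted p = 1.3e-04). The libraries were made with a strand-specific kit, but whether the counting used strand is not stated, and the part of Rangrf reads in the values of Slc25a35 was not tested.

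Carriers with related substrates were set against each other within each library, which cancels the scaling of the library. In 7 of the 8 pairs compared the log2 ratios of the lines did not overlap. For single genes the lines did not overlap in 70.6% of all tested genes. No such share was computed for other pairs of genes. With 3 libraries a line, the smallest two-sided p that the exact permutation test allows is 0.1, which those 7 pairs reached (0.11 after Benjamini-Hochberg adjustment over the 8 pairs), so that none could pass 0.05. A ninth pair, Slc25a18 with Slc25a22, was left out because Slc25a18 lay below the filter. For the ADP/ATP translocases, Slc25a4 over Slc25a5, the log2 ratio was -1.76 ± 0.05 in NUR77 and -2.13 ± 0.05 in GFP libraries (SD, n = 3 each). For the aspartate-glutamate carriers, Slc25a12 over Slc25a13, it was 0.61 ± 0.13 in NUR77 and 0.20 ± 0.03 in GFP libraries. The mitoferrin ratio, Slc25a37 over Slc25a28, was 2.82 ± 0.05 in NUR77 and 2.35 ± 0.06 in GFP libraries. These 3 ratios were higher in every NUR77 library than in any GFP library.

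The widest shifts were between the coenzyme A carriers and between the pyrimidine nucleotide carriers. Slc25a16 over Slc25a42 had a log2 ratio of 1.74 ± 0.06 in NUR77 and 2.62 ± 0.02 in GFP libraries, a difference of -0.89. Slc25a33 over Slc25a36 stood at -0.80 ± 0.01 in NUR77 and -1.52 ± 0.13 in GFP libraries, a difference of 0.72. The ratios of Slc25a23 over Slc25a24 and of Slc25a39 over Slc25a40 were lower in the NUR77 line, by differences of -0.35 and -0.32. The ratio of Slc25a10 over Slc25a11 overlapped, at -2.48 ± 0.15 in NUR77 and -2.51 ± 0.14 in GFP libraries (exact permutation p = 1.0, n = 3 each).

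**Figure D3:**
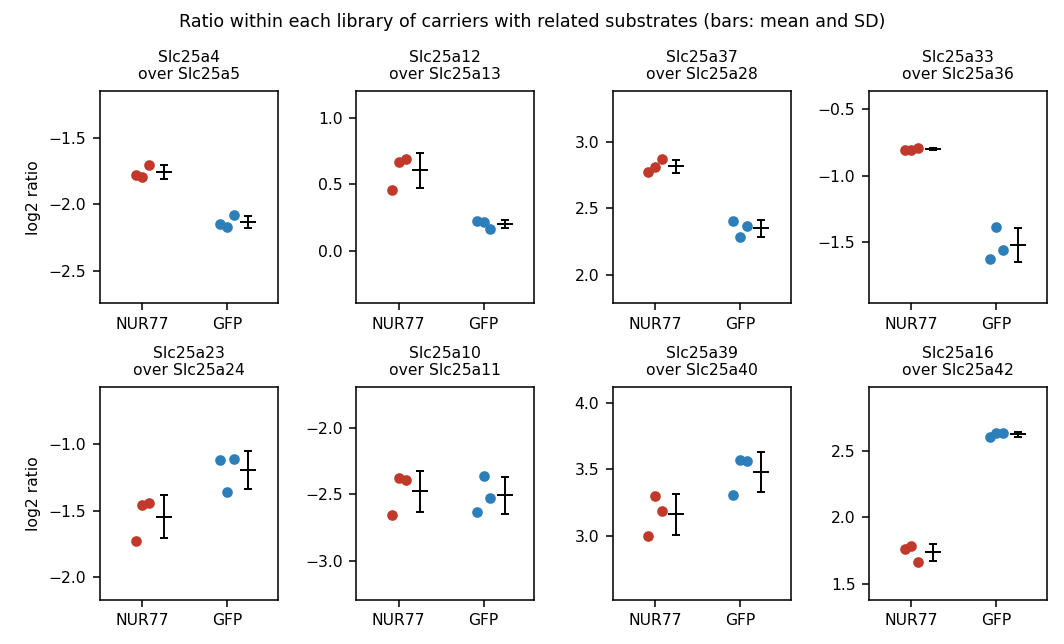
Each panel shows, for 1 pair of carriers, the log2 ratio of their values in each of the 3 NUR77 libraries (red, left) and the 3 GFP libraries (blue, right), with the mean and SD of each line; every panel spans the same range of log2 units around its own centre. The lines are apart in 7 panels and overlap for Slc25a10 over Slc25a11.

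To compare levels between genes, values were divided by the length of each gene's annotated exons, giving normalized reads per kilobase. Slc25a5 was first in both lines, at 4039.7 per kilobase in NUR77 and 4342 in GFP libraries. It was followed by Slc25a39 (841 in NUR77 and 1058 in GFP libraries), Slc25a4 (836 in NUR77 and 692 in GFP libraries) and Slc25a3 (569 in NUR77 and 675 in GFP libraries). This order depends on the exon lengths used, which were 5550 bases for Slc25a3, 2756 for Slc25a39 and 2353 for Slc25a4. Before the division Slc25a3 was above Slc25a39 and Slc25a4 in both lines, at 3157 normalized reads in NUR77 and 3748 in GFP libraries. In the NUR77 line Slc25a39 and Slc25a4 did not differ beyond their spread, with SDs of 43.2 and 10.9 per kilobase, nor did Slc25a4 and Slc25a3 in the GFP line. Slc25a53 was last, at 4.28 per kilobase in NUR77 and 7.10 in GFP libraries. By rank within the 36, Slc25a44 stood 17th in NUR77 and 10th in GFP libraries.

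**Figure D4:**
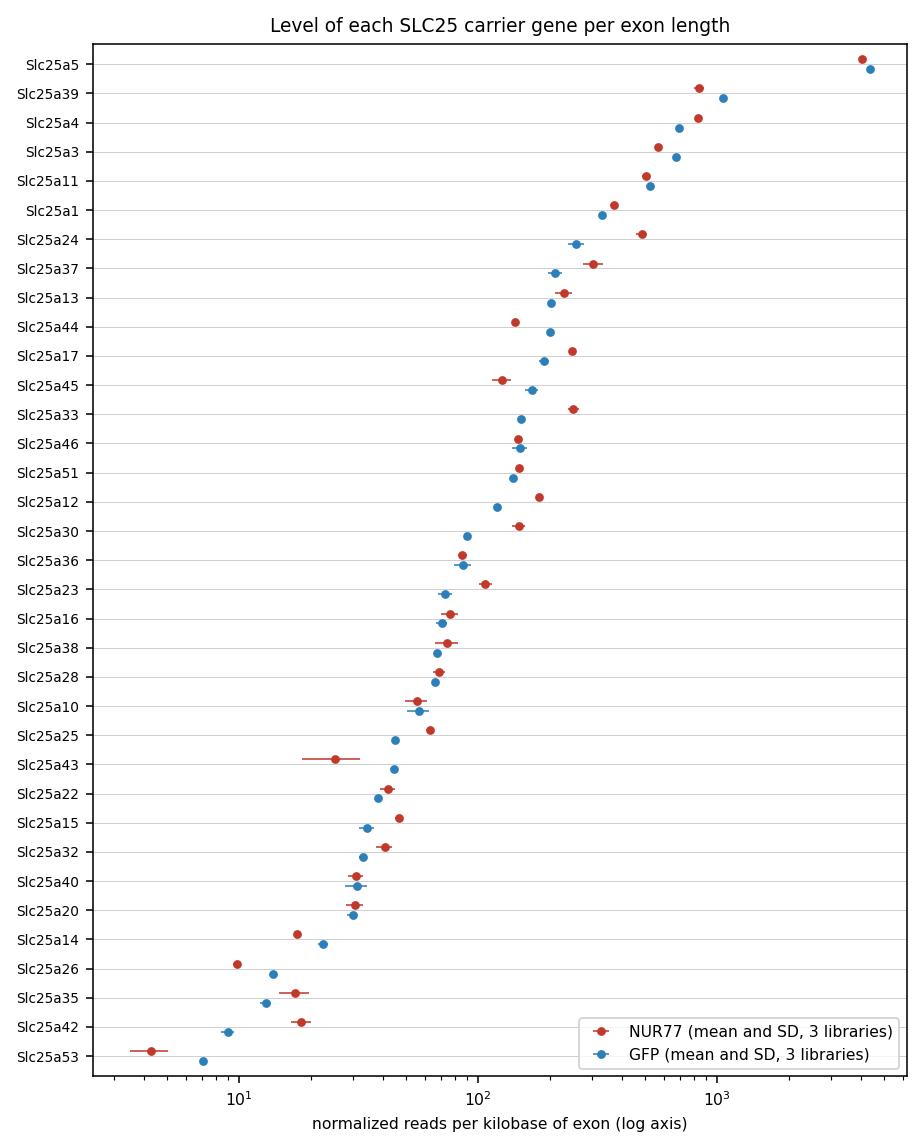
Mean normalized reads per kilobase of exon (log axis) with SD over 3 libraries for 35 SLC25 carrier genes, ordered by the level in the GFP line, with the NUR77 line (red) drawn above the GFP line (blue). Levels run from 4.28 (Slc25a53) to 4040 (Slc25a5) in the NUR77 line and from 7.10 to 4342 in the GFP line.

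The 36 SLC25 members together took 0.308%, 0.311% and 0.311% of reads in the NUR77 libraries, against 0.293%, 0.290% and 0.293% in the GFP libraries. A small difference in this sum depends on the scaling. TMM scaling shifted the median log2 fold change of all tested genes by -0.07, and the sum was not recomputed under it. The make-up of a different sum, the members' summed level per kilobase, differed between the lines as well. The 4 members with the highest level per kilobase, Slc25a5, Slc25a39, Slc25a4 and Slc25a3, held 59.6% ± 0.899 of the members' summed level per kilobase in NUR77 and 65.7% ± 0.142 in GFP libraries (SD, n = 3 each). Slc25a5 alone held 38.3% ± 0.966 in NUR77 and 42.2% ± 0.327 in GFP libraries. The share of Slc25a39 was 7.98% ± 0.359 in NUR77 and 10.3% ± 0.178 in GFP libraries, and that of Slc25a3 was 5.40% ± 0.0780 in NUR77 and 6.56% ± 0.198 in GFP libraries. Slc25a4 took the larger share in the NUR77 line, 7.93% ± 0.153, against 6.72% ± 0.170 in the GFP line.

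**Figure D5:**
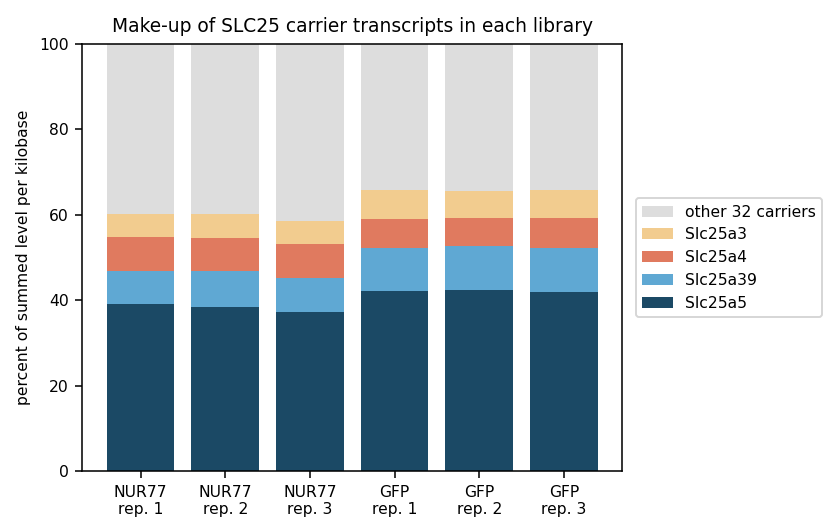
Bars show, for each of the 3 NUR77 and 3 GFP libraries, the percent of the 36 members' summed level per kilobase held by Slc25a5, Slc25a39, Slc25a4, Slc25a3 and the other 32 carriers. The 4 named carriers hold 58.6% to 60.2% in NUR77 libraries and 65.6% to 65.9% in GFP libraries.

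Below the filter lay 9 family genes. Slc25a29, a carrier of basic amino acids, had 16 reads over the 3 NUR77 libraries and 0 in the GFP libraries, at least 6.38-fold higher when 3 reads over the GFP group are taken as the limit. Slc25a47 had 26 reads in NUR77 and 46 in GFP libraries, with overlapping values. Slc25a2, an ornithine carrier, had 4 reads in NUR77 and 5 in GFP libraries, and Slc25a48 had 2 in NUR77 and 1 in GFP libraries. Slc25a18 (glutamate), Slc25a21 (oxoadipate), Slc25a27 (uncoupling protein 4) and Slc25a34 had 1 read each over all 6 libraries, and Slc25a31, the translocase known from testis, had 0. Slc25a41 and Slc25a54 were not analysed here.

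Genes that belong to the carrier family under other symbols were few. Of 5, 3 passed the filter, 1 rose and 1 fell, a share called of 66.7%, as of all tested genes. Ucp2, an uncoupling protein of immune cells, rose to 8753 ± 479.9 normalized reads in NUR77, against 7835 ± 78.9 in GFP libraries (log2 fold change 0.16, limma adjusted p = 0.0090). The call of Ucp2 was lost under TMM scaling (log2 fold change 0.08, limma adjusted p = 0.15), with median-of-ratios (0.080) and upper-quartile scaling (0.093), and without NUR77 replicate 2 (0.072). Mtch1, an outer membrane relative, fell (log2 fold change -0.29, limma adjusted p = 4.1e-04), and Mtch2 was at 0.02 (limma adjusted p = 0.75).

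Of 13 tested genes of import of carriers into mitochondria, 1 rose and 7 fell, with a median log2 fold change of -0.23. The share called was 61.5%, beside 66.7% of all tested genes, of which 38.4% rose and 28.3% fell. Tomm20, a receptor of the outer membrane, fell to 1314 ± 77.9 in NUR77, against 3015 ± 129 normalized reads in GFP libraries (log2 fold change -1.20, limma adjusted p = 6.2e-12). Tomm70a, the receptor known for recognising carriers, was the gene that rose (0.32, limma adjusted p = 6.7e-05). Timm22, the channel that inserts carriers into the inner membrane, fell (-0.25, limma adjusted p = 0.028), and so did its partners Timm29 (-0.41, limma adjusted p = 2.6e-04) and Timm10b (-0.71, limma adjusted p = 2.2e-04). The values of the lines overlapped for Timm22. Its call was lost without NUR77 replicate 1 (limma adjusted p = 0.091), GFP replicate 2 (0.088) or GFP replicate 3 (0.14). The chaperones Timm9 and Timm10 were not called (0.01 and -0.23, limma adjusted p = 0.91 and 0.051), but Timm10 passed as lower in 5 alternatives, among them TMM scaling (limma adjusted p = 0.013). Over all alternatives, 1 to 2 genes of this list rose and 5 to 8 fell.

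Of 13 tested genes of other mitochondrial transport, 6 rose and 4 fell, with a median log2 fold change of 0.10. Called genes made up 76.9% of this list and 66.7% of all tested genes. The channels of the outer membrane split, as Vdac1 (0.45) and Vdac3 (0.25) rose and Vdac2 (-0.25) fell. The subunits of the pyruvate carrier split as well, with Mpc2 at 0.29 (limma adjusted p = 0.0034) and Mpc1 at -0.23 (limma adjusted p = 0.018). The fall of Mpc1, whose lines overlapped, was lost without trend and robust moderation (limma adjusted p = 0.080), and without NUR77 replicate 2 (0.065) or 3 (0.094) or GFP replicate 1 (0.099).

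Enzymes that use or make the carriers' substrates rose in 10 and fell in 6 of 20 tested cases, with a median log2 fold change of 0.09. Called genes made up 80% of this list and 66.7% of all tested genes. Arg2 changed most in the list (-5.34, limma adjusted p = 6.8e-10). It had 0 in every NUR77 library and 39.7 ± 2.51 normalized reads in GFP libraries. Oat rose (0.27, limma adjusted p = 3.1e-04). In the malate-aspartate shuttle, Got2, Mdh1 and Mdh2 rose (0.48, 0.31 and 0.28) beside Slc25a12, and Got1, the cytosolic aspartate aminotransferase, fell (-0.27). Around citrate export, citrate synthase Cs rose (0.47, limma adjusted p = 8.7e-08), the citrate-cleaving enzyme Acly was not called (0.04, limma adjusted p = 0.50), and Me1, the cytosolic malic enzyme, rose to 1039 ± 113 in NUR77, against 192 ± 12.9 normalized reads in GFP libraries (2.43, limma adjusted p = 9.5e-14). Beside Slc25a20, Cpt1a fell (-0.39, limma adjusted p = 8.3e-05) and Cpt2 was not called (-0.02, limma adjusted p = 0.80). Beside Slc25a37, the ferrochelatase Fech, which inserts iron into heme, rose (0.52, limma adjusted p = 2.2e-05), and Iscu, the iron-sulfur scaffold, fell (-0.24, limma adjusted p = 0.0060).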

How the data were processed

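Poly(A) RNA of 6 RAW264.7 cultures was measured with strand-specific libraries, per the labels' protocols, and titles gave the group of each sample. The deposited table holds log2 values for single libraries, with none pooled. TopHat2 2.1, DESeq2, HTSeq and mm10 are named per the submitters' processing notes, with no role stated; annotation release and use of strand in counting are likewise not given. As computed here, each value is the log2 of reads per 10000000 reads counted on genes, plus 1, and whole reads could be recovered for 100% of values within 0.1 read. Equal totals were set by this scaling, so abundant genes that differ shift all others slightly, and limits from reads cover counting error only.

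Identifiers were matched to GENCODE M21 (GRCm38, mm10), which named 22888 of 23154 genes and gave coordinates and exon lengths. Exon length is the union of all annotated exons, so genes with long minor isoforms have a level per kilobase that is too low. Lines were compared on log2(normalized reads + 1) over all 6 libraries by limma (version 3.58.1, under R 4.3.3) with robust and trend moderation, for 11201 genes with a mean of 10 or more, with Benjamini-Hochberg adjustment over all of them and a threshold of 0.05. Fold changes are NUR77 over GFP on that scale, which understates changes of low genes. The fit was also run on simulated data in which few genes changed, with rises and falls balanced. That run does not test the scaling. Alternatives were other pseudocounts, filters, scalings and moderation, limma-voom on recovered reads, a replicate block and leaving out each library. Values of every library were planned for members past the threshold with an absolute log2 fold change of 0.5 or more, for 9 carriers central to energy metabolism and for the pairs; other members are given by means or fold changes, and some by library beyond that rule. Members, lists, pairs and motifs were chosen with earlier results of these data known. Values of 1 member are not reported here, though it enters the counts over the 36.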

Additional observations from a re-analysis of the deposited data

How the results depend on the processing

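Of the 24 carriers called, 20 kept their call and direction under each of the 16 alternatives in which they were tested (Slc25a53, 1 of the 20, fell below the filter at a mean of 50 and was not tested there); Slc25a1, Slc25a13, Slc25a14 and Slc25a35 lost it under at least 1, and Slc25a5, Slc25a11, Slc25a16, Slc25a22 and Slc25a38 gained one. No called carrier changed sign, while 6 carriers without a call did. The median log2 fold change of the carriers was 0.12 and moved to 0.045 with TMM, 0.057 with upper-quartile and 0.062 with median-of-ratios scaling, which also shift all genes (by -0.07 in the median with TMM). Leaving out 1 library gave 14 to 18 carriers that rose, 7 to 8 that fell, a median of 0.083 to 0.143 and 6749 to 7257 genes called. Genes and counts of the related lists were recomputed under the same alternatives, a step added after seeing the data: of 36 list genes called, 8 lost the call under at least 1 alternative, 4 of the 13 others gained one and 0 changed sign. Of the pairs, 1 ratio difference moved by more than its SD (Slc25a16 over Slc25a42, -0.84 with a pseudocount of 5). With the replicate block 16 carriers rose and 7 fell, and 7585 genes were called. The labels share only replicate numbers: deviations of same-numbered libraries correlated at 0.0016, 0.11 and 0.045, and 3 of the 6 libraries correlated best with their own number. The lowest read count of a member in a library was 36, so depth limits the low members Slc25a14, Slc25a26, Slc25a35, Slc25a43 and Slc25a53 most.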

Other observations

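By position, 4 members lie on chromosome X. Slc25a14, Slc25a43 and Slc25a53 fell and Slc25a5 was at -0.10 without a call, whereas 31.3% of the 345 tested genes of that chromosome fell and their median log2 fold change was 0.01. Those that fell are among the low members, and the call of Slc25a14 was lost with each library left out in turn. Slc25a43 and Slc25a5 are neighbours, 18448 bases apart, and among the 24 tested genes nearest to Slc25a43 the median was 0.17, with 9 that rose and 4 that fell. Across the members, the median log2 fold change of up to 24 neighbouring tested genes lay between -0.12 and 0.27. Positions were examined after the carriers' values were seen, and no test was made of them.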
